A study of Mus musculus with 3 samples.

Results

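Tight junctions seal the space between neighbouring epithelial or endothelial cells and decide which ions and solutes pass between them. The 8 genes described here code for their core parts and were fixed by name: the claudins Cldn3, Cldn4, Cldn5, Cldn7, Cldn10 and Cldn18, occludin (Ocln), and zonula occludens 1 (Tjp1). They are 8 of the 21507 genes present in both deposited count tables. Claudins span the membrane and polymerise into the junction strands, and the mixture of claudins sets the strand's tightness and charge selectivity. Occludin is a second membrane protein of the strand. Tjp1 is the cytoplasmic scaffold that ties strand proteins to actin. In lung, claudin-18 is known for the alveolar epithelium, claudin-5 for endothelium and claudin-10 for club cells.

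The libraries came from lungs of wild type C57Bl/6J mice and were made with 10x Chromium 3' v3 chemistry. In 1 library fresh tissue had been dissociated into whole cells with DNAse and collagenase, and in 2 libraries nuclei had been lysed out of snap-frozen lung. The labels name no animals, so nothing says whether the libraries came from separate mice, and p-values measure only the spread between these libraries.

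After filtering, 11934 cell barcodes, 6759 barcodes of nucleus replicate 1 and 9806 of nucleus replicate 2 were kept, with medians of 2864, 4155 and 2521 unique molecular identifiers (UMIs). Each pair of libraries shared 21 to 24 barcode sequences. No barcode had more than 2499 detected genes in the cell library and nucleus replicate 1, or 2999 in nucleus replicate 2, so richer barcodes are not represented. Barcodes were clustered without the 8 genes and without 47 other tight junction genes, and clusters were named by marker genes that are not tight junction genes. Names such as AT1 and AT2 (type 1 and type 2 pneumocyte) therefore stand for AT1-like, AT2-like and so on, and a difference between preparations may come from these rebuilt names. The cell library held 168 AT1, 484 AT2 and 122 ciliated barcodes, and no cluster named club or arterial. Its ciliated cluster had club as the next best class (marker score 1.501, against 5.505 for ciliated). Its general capillary cluster had arterial as the next best (0.945, against 2.121). Club and arterial cells may therefore lie within these classes of cells. Nucleus replicates 1 and 2 held 337 and 990 AT1, 1346 and 1616 AT2, 77 and 687 ciliated, and 138 and 1002 club barcodes. Among endothelial classes, general capillary had 1364, 1900 and 1151 barcodes and aerocyte capillary 886, 321 and 324, in the order cells, nucleus replicate 1, nucleus replicate 2. That order of libraries is kept wherever 3 values are given. B and T/NK/ILC barcodes (T, natural killer and innate lymphoid cells), which form no tight junctions, served as the lymphocyte background. It stands in for free RNA in the droplets, which was not measured on its own.

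Cldn3 and Cldn4 are neighbours on chromosome 5 of the mm10 build, and with Cldn5 they are the members whose gene model has a single exon. Cldn3 lies at chr5:134986214-134987472 on the plus strand and Cldn4 at chr5:134945119-134946934 on the minus strand, with 39280 bases between the annotated end of Cldn4 and the start of Cldn3. Cldn5 (chr16:18776847-18778262, plus strand) spans 1.416 kb. Cldn7 (chr11:69964779-69967885, plus strand) spans 3.107 kb with at most 5 exons. The longer genes are Cldn18 (chr9:99689461-99717267, minus strand, 27.81 kb), Ocln (chr13:100496507-100552718, minus strand, 56.21 kb), Cldn10 (chr14:118787908-118875489, plus strand, 87.58 kb) and Tjp1 (chr7:65296165-65527781, minus strand, 231.6 kb, up to 28 exons).

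The 250 bases upstream of an annotated start are shown for 5 claudins: Cldn3 and Cldn7, whose levels moved together across classes, Cldn4, the nearly undetected neighbour of Cldn3, Cldn5 of the endothelium and Cldn18 of the alveolus. They are RefSeq sequences of GRCm38.p6, 5′ to 3′ on the gene's strand, at chr5:134985964-134986213, chr5:134946935-134947184, chr11:69964529-69964778, chr16:18776597-18776846 and chr9:99717268-99717517 in the order printed. Capitals mark matches, on either strand, to 5 motifs: the Snail E-box CAGGTG, the GC box GGGCGG, the AP-1 site TGANTCA, an ETS site CAGGAAG and an NKX site CAAGTG.
Cldn3: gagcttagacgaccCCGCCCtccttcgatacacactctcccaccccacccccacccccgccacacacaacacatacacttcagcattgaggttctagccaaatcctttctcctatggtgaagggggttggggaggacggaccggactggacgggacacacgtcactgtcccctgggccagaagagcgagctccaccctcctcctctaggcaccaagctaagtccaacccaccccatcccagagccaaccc
Cldn4: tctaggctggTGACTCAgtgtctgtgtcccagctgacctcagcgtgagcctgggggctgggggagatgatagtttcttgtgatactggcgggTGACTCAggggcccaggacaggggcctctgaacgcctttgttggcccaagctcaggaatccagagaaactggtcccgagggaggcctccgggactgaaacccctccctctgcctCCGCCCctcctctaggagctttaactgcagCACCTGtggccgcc
Cldn7: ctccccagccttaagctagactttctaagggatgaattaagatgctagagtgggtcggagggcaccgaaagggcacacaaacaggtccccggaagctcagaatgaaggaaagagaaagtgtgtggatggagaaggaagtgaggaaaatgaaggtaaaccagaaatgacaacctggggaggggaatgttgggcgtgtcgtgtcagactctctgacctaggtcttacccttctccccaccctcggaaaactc
Cldn5: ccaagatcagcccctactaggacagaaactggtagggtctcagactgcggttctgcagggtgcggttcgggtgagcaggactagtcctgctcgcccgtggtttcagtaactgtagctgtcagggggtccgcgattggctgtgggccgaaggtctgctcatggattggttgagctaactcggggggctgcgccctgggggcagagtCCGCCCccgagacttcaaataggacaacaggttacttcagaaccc
Cldn18: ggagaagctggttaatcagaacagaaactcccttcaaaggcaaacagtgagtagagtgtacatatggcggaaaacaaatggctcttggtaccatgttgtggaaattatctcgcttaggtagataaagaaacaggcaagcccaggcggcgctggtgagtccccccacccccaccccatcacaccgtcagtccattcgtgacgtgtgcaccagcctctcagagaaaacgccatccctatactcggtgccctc

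Over 32851 mouse promoters of the same length, 17.2% held the E-box, 32.7% the GC box, 6.75% the AP-1 site, 10.8% the ETS site and 11.6% the NKX site. Cldn4 held 1 E-box, 1 GC box and 2 AP-1 sites, Cldn3 and Cldn5 held 1 GC box each, and the windows printed for Cldn7 and Cldn18 held none of the 5. A second annotated start of Cldn7 had 2 E-boxes, 1 GC box and 1 NKX site in its window, and a second start of Cldn18 had 1 NKX site. Counts of 3' ends do not tell the starts apart, and a match is a run of letters and not a measured site.

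Cldn18, the alveolar claudin, was highest in AT1 and next in AT2 in every library. Levels are CPM values: the UMIs of a gene in a class relative to all UMIs of that class in the library, on the usual CPM scale. In AT1, Cldn18 stood at 1225, 283 and 448 CPM, and in AT2 at 367, 201 and 235 CPM. The AT1 to AT2 ratio was 3.34 in cells (95% counting interval 2.98 to 3.74), 1.41 in nucleus replicate 1 (1.26 to 1.56) and 1.91 in nucleus replicate 2 (1.76 to 2.06). All 3 intervals lay above equality. The one from cells did not overlap those from nuclei, and those of the 2 nucleus libraries did not overlap each other either. Libraries of 1 preparation thus differed by more than counting error. With the library as a block, edgeR put AT1 above AT2 by 1.17 on the log2 scale (SE 0.22, adjusted p = 0.00542).

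The Cldn18 level of lymphocyte barcodes was lower against this in cells than in nuclei. T/NK/ILC barcodes held 31.8, 95.8 and 141 CPM and B barcodes 34.9, 110 and 199 CPM. AT1 therefore exceeded T/NK/ILC 38.5 times in cells (95% counting interval 30.8 to 48.6) but 2.95 times (2.35 to 3.74) and 3.19 times (2.58 to 3.98) in nuclei. In nucleus replicate 2, the counting intervals of AT2 and B overlapped.

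To set barcodes of unequal depth side by side, each barcode was thinned to 1000 UMIs and shallower ones were left out (0 of 168, 0 of 337 and 3 of 990 AT1 barcodes). A Cldn18 UMI was then seen in 66.7%, 24.6% and 33.4% of AT1 and in 29.1%, 17.2% and 21.7% of AT2 barcodes. B and T/NK/ILC together gave 3.82%, 8.48% and 14.9%, at median depths of 2556, 2655.5 and 1348.5 UMIs before thinning, against 3242, 5530 and 4268 in AT1. AT1 and AT2 were the only classes whose exact 95% interval lay above that background in both nucleus libraries, and cells added general capillary and pericyte. In those 2 classes of cells the shares were 6.89% and 6.96%. In nucleus replicate 2, 5 of 17 classes lay below the background of B and T/NK/ILC, whose barcodes were shallower than AT1. Endothelial markers, listed further on, summed to 1996 CPM in B and 1493 in T/NK/ILC of nucleus replicate 1, against 315 in AT1 and 425 in AT2. In nucleus replicate 2 the sums were 2371 and 1994, against 331 and 540. In cells the order was the other way, 1078 and 1566 against 2258 and 2766. The background of both nucleus libraries may therefore be too high for other classes, and a class not above it may still express the gene.

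**Figure D1:**
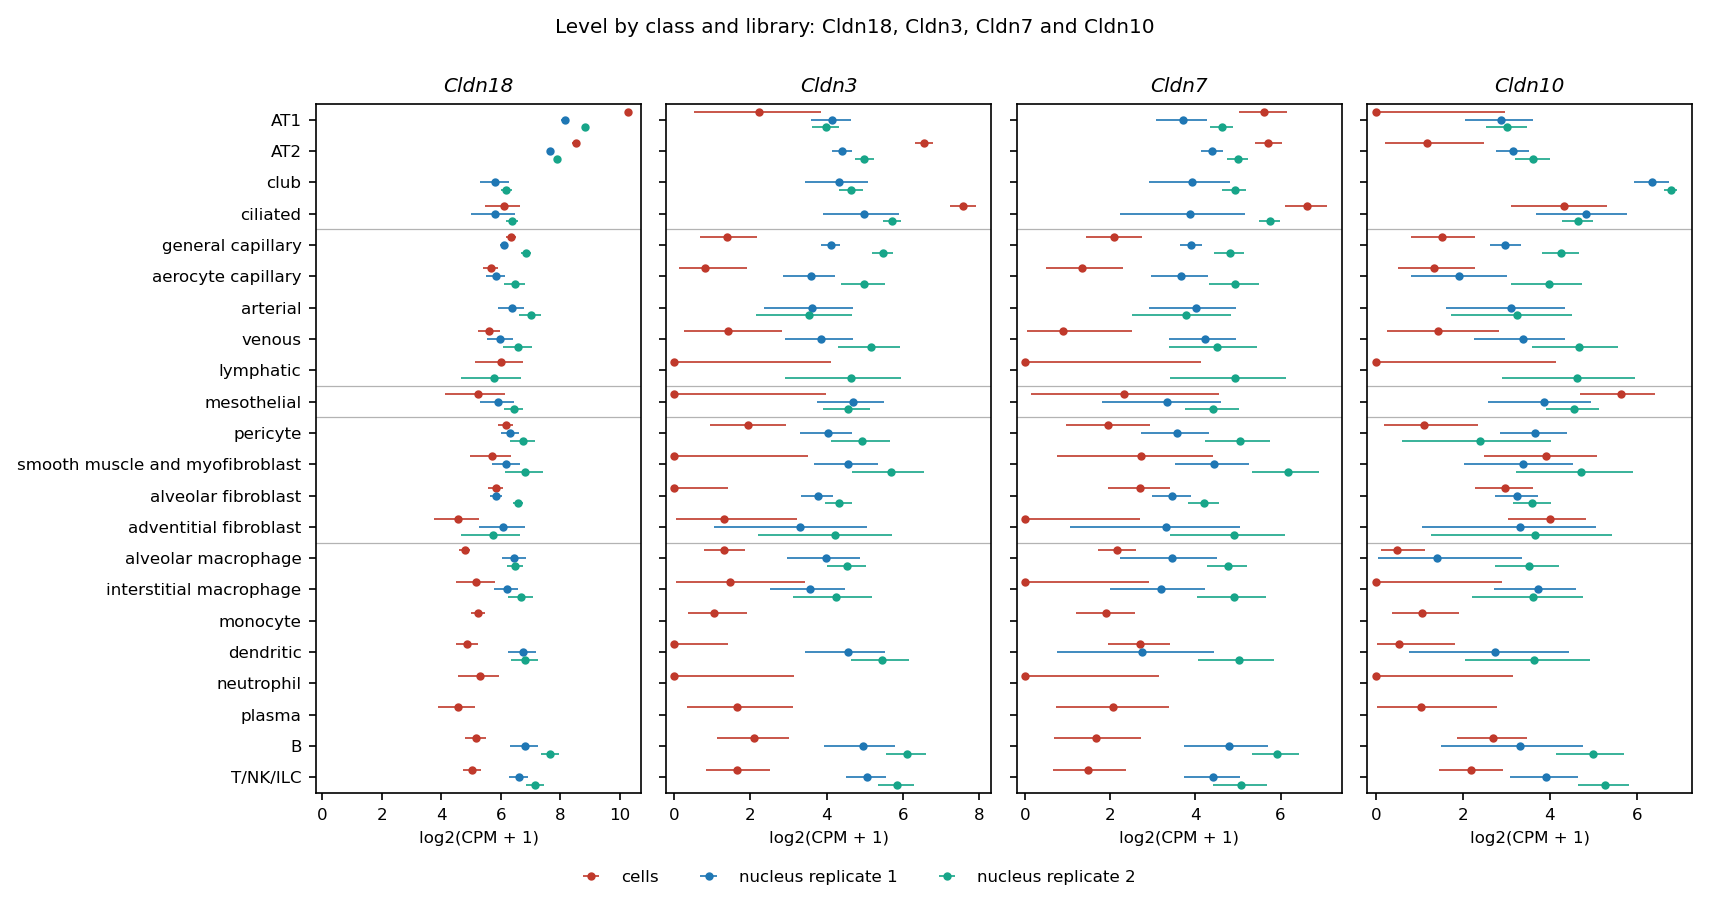
Level of Cldn18, Cldn3, Cldn7 and Cldn10 in every class with at least 50 barcodes, as log2(CPM + 1), with 1 point per library and exact 95% Poisson intervals that cover counting error only. Cldn18 peaks in AT1 and AT2 in all 3 libraries, Cldn3 and Cldn7 stand out in ciliated, AT2 and (Cldn7) AT1 in cells only, and Cldn10 peaks in club nuclei.

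Cldn3 and Cldn7, claudins of many epithelia, marked epithelium clearly in cells and not in nuclei. Cldn3 reached 192 CPM in ciliated and 92.9 CPM in AT2 cells, while no other class of cells went above 3.70 CPM. Its AT1 level in cells was that 3.70 CPM, from 2 counts. The ciliated cluster of cells also carried club markers, so its level may include club cells. In the nucleus libraries the order was lost: ciliated stood at 30.6 and 51.7 CPM, AT2 at 20.3 and 30.8, and T/NK/ILC at 32.3 and 56.2. Cldn3 in AT2 was 43.3 times T/NK/ILC in cells (95% counting interval 19.4 to 120), but 0.628 times (0.418 to 0.971) and 0.548 times (0.375 to 0.818) in nuclei.

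Cldn7 followed the same classes with AT1 added. In cells it stood at 97.2 CPM in ciliated, 51.6 in AT2 and 48.0 in AT1, and at most 5.62 CPM elsewhere. The AT2 and AT1 intervals overlapped. Nuclei gave 13.6 and 52.5 CPM in ciliated, 20.1 and 30.8 in AT2 and 12.0 and 23.5 in AT1, against 20.4 and 32.8 CPM in T/NK/ILC. Of AT1, AT2 and ciliated nuclei, ciliated barcodes of nucleus replicate 2 alone had a ratio to T/NK/ILC whose interval stayed above 1, at 1.60 (1.01 to 2.67). In that library B, at 59.1 CPM, and smooth muscle and myofibroblast, at 71.2 CPM from 14 counts, were above ciliated.

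After thinning, Cldn3 was seen in 17.2% of ciliated (95% interval 10.98 to 25.1) and 7.85% of AT2 cells (5.62 to 10.6), against 0.358% in B and T/NK/ILC cells together. The same background was 3.79% and 5.43% in nuclei, where no class stood above it for Cldn3. In nucleus replicate 2, 3 of 17 classes lay below it. Cldn7 was above background in ciliated (10.7%), AT2 (4.75%) and AT1 cells (2.38%), against 0.239%, and in no class of nuclei. A share at the background is read neither as expression nor as its absence. Markers shared by epithelial cells (Epcam, Cdh1, Krt8, Krt18, Nkx2-1 and Esrp1) moved the same way: their sum in T/NK/ILC barcodes was 31.5 CPM in cells and 220 and 427 CPM in nuclei. In AT1 barcodes the same sum was 1022, 619 and 767 CPM. Whether free epithelial RNA had a part in the claudin levels was not tested.

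The difference between preparations was itself tested. In the planned interactions, without the library block, edgeR called 0 of 8 members for epithelium against endothelium (Cldn3 5.86, adjusted p = 0.371, and Cldn7 4.09, adjusted p = 0.447) and 0 of 7 for AT1 against AT2, beside 0.0% of all genes in both. An unadjusted p was under 0.05 for 3 members (Cldn3, Cldn7 and Cldn18) in the first and for 1 (Cldn3) in the second, and DESeq2 called 2 and 0. The contrasts that follow were chosen after the data were seen and have the library as a block. Their spread comes from the 2 nucleus libraries, and the lone cell library is assumed to vary like them. Small p-values therefore do not measure variation between cell libraries. Ciliated barcodes of nucleus replicate 1 held only 9 Cldn3 counts. Against general capillary, the AT2 excess of Cldn3 was larger in cells by 5.76 on the log2 scale (SE 0.55, adjusted p = 0.0401) and that of Cldn7 by 3.47 (SE 0.40, adjusted p = 0.0463), where 0.487% of all genes were called. The ciliated excess of Cldn3 over general capillary was larger in cells by 6.17 (SE 0.66, adjusted p = 4.08e-17), where 2.77% of all genes were called. Against T/NK/ILC, 2 members passed for AT1 (Cldn18 and Cldn7, beside 3.77% of all genes) and 1 for aerocyte capillary (Cldn5, beside 1.32%), each with a larger excess in cells. DESeq2 did not call Cldn5 (adjusted p = 0.231) and gave no adjusted p for Cldn7.

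Cldn4, a close relative of Cldn3, was almost undetected: 1, 8 and 29 counts in the whole libraries. That is 0.0278 CPM in cells (95% interval 0.000704 to 0.155), 0.288 in nucleus replicate 1 (0.125 to 0.568) and 1.07 in nucleus replicate 2 (0.715 to 1.53). Of the 29 counts of nucleus replicate 2, 12 fell in club barcodes, at 3.55 CPM (1.83 to 6.20). The single count in cells was in AT2. Cldn4 passed the filter on low counts in no comparison of classes and was above background in no class of any library.

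Cldn10, known from club cells, was highest in club nuclei, at 80.6 and 108 CPM. AT2 nuclei held 7.83 and 11.3 CPM, a club to AT2 ratio of 10.3 (95% counting interval 6.77 to 15.7) and 9.60 (7.03 to 13.4). The ratios of the 2 nucleus libraries overlapped. The share of club nuclei with a UMI was 3.62% (1.19 to 8.25) and 9.23% (7.50 to 11.2), against backgrounds of 1.56% and 3.88%. By this share club was above background in nucleus replicate 2 only. By level, club exceeded T/NK/ILC in both, 5.76 times in nucleus replicate 1 (95% counting interval 3.09 to 11.55) and 2.89 times in nucleus replicate 2 (1.91 to 4.56). Among cells, where no cluster was named club, Cldn10 was highest in mesothelial barcodes at 48.3 CPM from 12 counts. That class, the outer lining of the lung, was seen with a Cldn10 UMI in 6.33% of cells (2.09 to 14.2), above the background of 0.239%. Mesothelial nuclei held 13.7 and 22.5 CPM, no more than T/NK/ILC nuclei at 14.0 and 37.5 CPM.

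Cldn5, the endothelial claudin, had its clearest pattern in cells. It stood at 1868 CPM in aerocyte capillary, 1114 in general capillary, 803 in venous and 568 in lymphatic cells, and each step down to venous lay outside the counting intervals. Endothelial barcodes were 23.0% of the cell library and held 65.8% of its Cldn5 counts. Pericytes, the mural cells of capillaries, came to 621 CPM. In nuclei the same classes held far less: aerocyte capillary 75.3 and 220 CPM, general capillary 66.3 and 169, and venous 63.5 and 111. B barcodes held 126, 56.5 and 118 CPM, so in nuclei B stood next to the endothelial classes.

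Thinned to 1000 UMIs, 80.0% of aerocyte capillary, 65.2% of general capillary and 51.6% of venous cells had a Cldn5 UMI, against 12.8% in B and T/NK/ILC cells. The shares in nuclei were 6.85% and 15.9% for aerocyte capillary and 7.47% and 15.2% for general capillary, against 5.80% and 10.2%. In cells, 9 of 18 classes stood above background, among them pericyte (40.5%), smooth muscle and myofibroblast, interstitial macrophage, AT1 and AT2. No class did in nucleus replicate 1, and only general capillary did in nucleus replicate 2, where 6 of 17 classes lay below background.

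**Figure D2:**
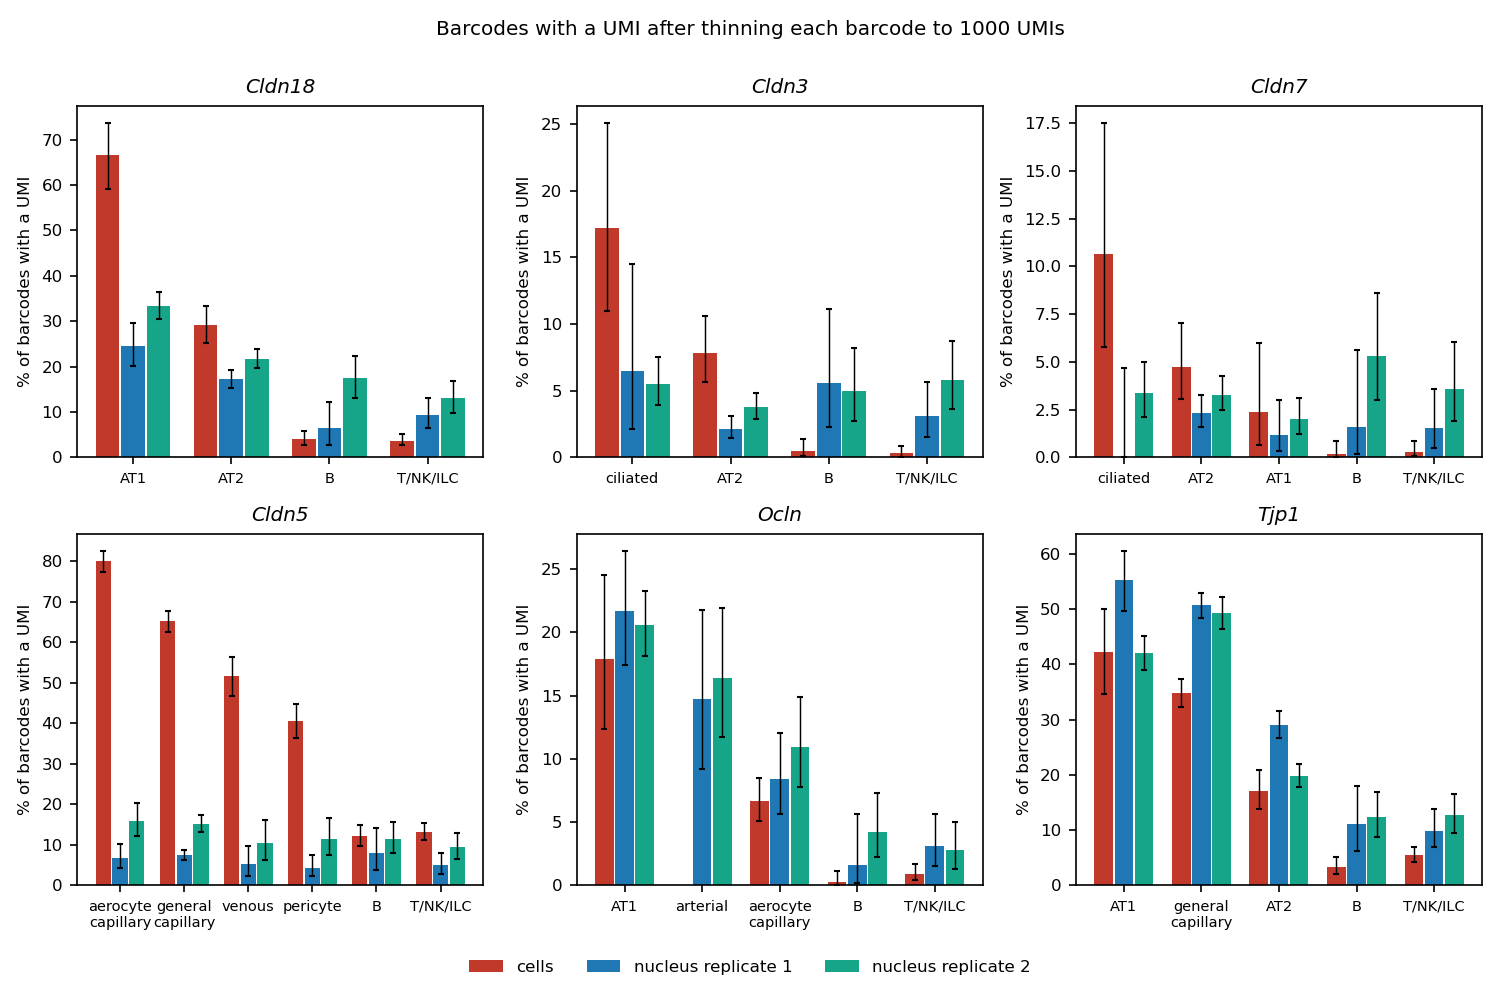
Share of barcodes with at least 1 UMI of each gene after thinning to 1000 UMIs, with exact binomial 95% intervals (counting error only), for the leading classes and for B and T/NK/ILC barcodes. Cldn5, Cldn3 and Cldn7 separate their classes from lymphocytes in cells and mostly not in nuclei, whereas Ocln and Tjp1 do so in both preparations. Arterial barcodes have no cell bar because no cell cluster was named arterial.

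In cells, the level of Cldn5 outside endothelium moved with endothelial markers, and less closely so in nuclei. The summed level of 8 endothelial markers (Pecam1, Cdh5, Tie1, Emcn, Erg, Egfl7, Calcrl and Cyyr1) was 9968 CPM in general capillary, 5005 in pericyte, 2258 in AT1 and 1566 in T/NK/ILC cells. Cldn5 came to 11.03% to 15.6% of that sum in the 16 non-endothelial classes of cells and to 9.81% to 21.6% in the 4 endothelial ones, so the ranges overlapped. In nuclei they did not overlap. The 4 endothelial classes of nucleus replicate 1 gave 0.454% to 0.803% and its 14 other classes 2.83% to 12.5%. In nucleus replicate 2 the 5 endothelial classes gave 1.10% to 3.75%, highest in lymphatic, and the 14 others 4.53% to 12.1%. The marker sum itself stayed high in endothelial nuclei, at 14590 and 11207 CPM in general capillary. What part free RNA had in the Cldn5 of any class was not tested.

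**Figure D3:**
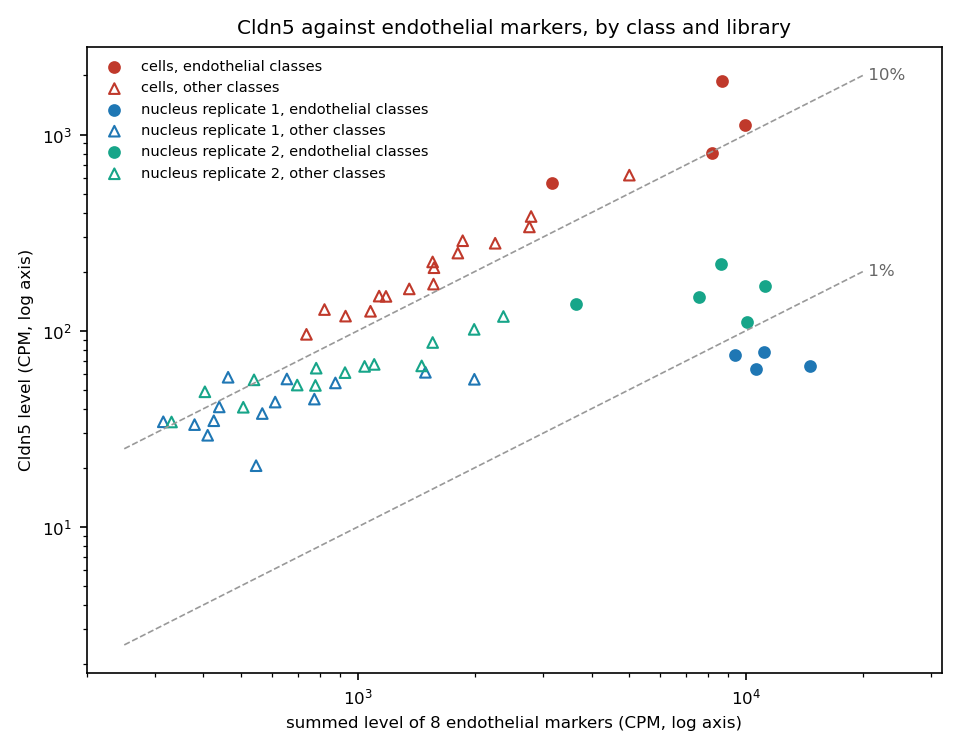
Cldn5 level against the summed level of 8 endothelial markers, both in CPM on log axes, 1 point per class and library, with dashed lines at 1% and 10%. Classes of cells lie between 9.81% and 21.6%, non-endothelial classes of nuclei between 2.83% and 12.5%, and endothelial classes of nuclei between 0.454% and 3.75%.

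Ocln was highest in AT1 in every library, at 166, 252 and 267 CPM. AT2 held 29.9, 83.1 and 69.7 CPM, an AT1 to AT2 ratio of 5.56, 3.03 and 3.83. In nuclei the arterial class came next, at 197 and 190 CPM, and in nucleus replicate 1 its interval overlapped that of AT1. Ciliated barcodes held 72.9, 123 and 154 CPM, club nuclei 120 and 145, and aerocyte capillary 64.4, 117 and 130. These neighbours in the order had overlapping intervals in each library. T/NK/ILC barcodes held only 6.79, 32.3 and 29.7 CPM.

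Ocln stood clear of the lymphocyte background in nuclei as well as in cells. The thinned share in AT1 was 17.9%, 21.7% and 20.6%, against 0.657%, 2.68% and 3.42% in B and T/NK/ILC barcodes together. Of the 18, 16 and 17 classes measured, 7, 5 and 7 stood above background. AT1, AT2, general capillary and aerocyte capillary did so in all 3 libraries. Among cells the list also held alveolar macrophages, at 1.95% and 21.0 CPM, although macrophages are not known for tight junctions. The summed epithelial markers were also higher in these macrophages, at 94.0 CPM against 36.0 in B and 31.5 in T/NK/ILC cells. The part of free RNA in their Ocln was not tested.

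Tjp1 was the most widely spread member. General capillary held 455, 753 and 740 CPM, aerocyte capillary 421, 764 and 612, AT1 436, 818 and 593, and venous 370, 489 and 591. The first 3 of these classes had overlapping intervals in cells. AT2 stood at 202, 356 and 232 CPM and T/NK/ILC at 65.8, 104 and 184. A Tjp1 UMI was seen in 34.8%, 50.7% and 49.3% of general capillary and 42.3%, 55.2% and 42.0% of AT1 barcodes, against 4.66%, 10.3% and 12.6% in B and T/NK/ILC together. Tjp1 stood above background in 12 of 18 classes of cells and in 9 of 16 and 9 of 17 of nuclei, mesothelial and pericyte cells among them.

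**Figure D4:**
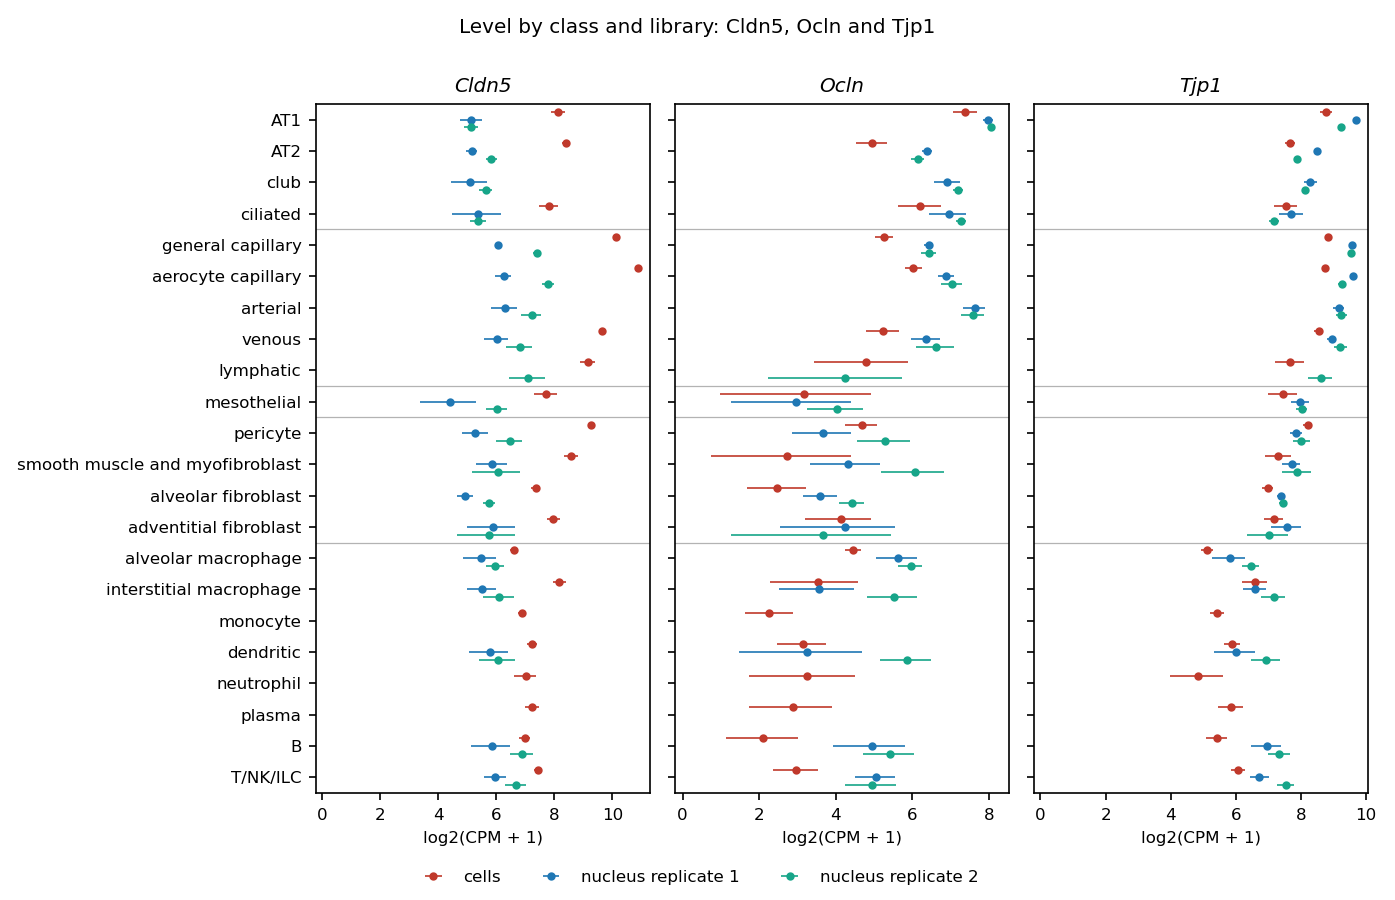
Level of Cldn5, Ocln and Tjp1 in every class with at least 50 barcodes, as log2(CPM + 1), with 1 point per library and exact 95% Poisson intervals that cover counting error only. Cldn5 separates the libraries in nearly every class, while Ocln and Tjp1 keep AT1, general capillary and aerocyte capillary above lymphocytes in all 3 libraries. Lymphatic Ocln is low, at 26.8 CPM in cells and 17.8 CPM in nucleus replicate 2.

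The alveolar comparison asked which junction genes set AT1, the thin gas exchange cell, apart from AT2, the surfactant cell. Of 7 members tested, Ocln, Tjp1 and Cldn18 were higher in AT1 and none was lower, where 23.0% of all genes were called in either direction. Ocln rose by 2.10 on the log2 scale (SE 0.18, adjusted p = 0.000113) and Tjp1 by 1.34 (SE 0.20, adjusted p = 0.00182). The differences of Cldn7 (-0.26, SE 0.19), Cldn5 (-0.24, SE 0.18) and Cldn10 (-0.31, SE 0.36) missed the threshold, as did that of Cldn3 (-1.15, SE 0.51, adjusted p = 0.153). Without nucleus replicate 2, Cldn18 stood at 1.14 with an adjusted p of 0.0681. Of 37 other tight junction genes tested, 14 were higher and 4 lower in AT1. The polarity genes Pard6b (3.38), Mpp5 (2.60) and the scaffolds Magi1 (2.76) and Cgn (1.97) led those that were higher. Magi2 (-1.99), Tjp3 (-1.65), Clmp (-1.10) and Pard3 (-0.88) were lower.

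Airway classes differed from AT2 in other members. Ciliated barcodes were higher in Cldn10 (1.84, SE 0.45, adjusted p = 0.00641), Ocln (1.07, SE 0.28, adjusted p = 0.00924) and Cldn3 (0.90, SE 0.28, adjusted p = 0.0238), and lower in Cldn18 (-1.83, SE 0.30, adjusted p = 0.000247). Ciliated barcodes were above the lymphocyte background for Cldn10 in no library, and in nucleus replicate 2 their 24.0 CPM lay below the 30.6 of B and 37.5 of T/NK/ILC. That made 4 of 7 members, beside 25.6% of all genes. Cldn3 was no longer called with DESeq2 (adjusted p = 0.0882), without the filter on low counts (0.0800) or without nucleus replicate 2 (0.231), which also ended the call of Ocln (0.171). Club against AT2 could be set up in nuclei alone. Cldn10 was higher by 3.30 (SE 0.22, adjusted p = 4.88e-11) and Ocln by 0.83 (SE 0.18, adjusted p = 0.00102), while Cldn18 was lower (-1.77, SE 0.17, adjusted p = 3.75e-08). These were 3 of 7 members, beside 20.7% of all genes, and DESeq2 gave Ocln an adjusted p of 0.0749. With nucleus replicate 1 left out, the Ocln difference was 1.08, and with nucleus replicate 2 left out it was 0.54. Among the other junction genes, Jam2 (2.86) and Cgn (1.62) led the 6 of 35 that were higher in club, and Esam (-1.45) and Magi1 (-1.06) led the 5 that were lower. In ciliated, Magi2 (3.22) and Jam3 (3.21) were the 2 of 36 that were higher, and Cgnl1 (-2.04) and Pard3 (-1.22) led the 6 that were lower.

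Within endothelium, Ocln was called in aerocyte and arterial against general capillary, and Tjp1 in lymphatic. Ocln was higher in aerocyte than in general capillary by 0.66 (SE 0.13, adjusted p = 0.00944), the sole call among 7 members, beside 10.9% of all genes. The ratio was 1.72, 1.38 and 1.52 in the 3 libraries. Without nucleus replicate 2 its adjusted p was 0.0782. Cldn5 was higher by 0.50 (SE 0.15) in aerocytes with an adjusted p of 0.0798. Arterial nuclei exceeded general capillary nuclei in Ocln by 1.14 (SE 0.17, adjusted p = 1.08e-06), 2.31 times in nucleus replicate 1 and 2.22 times in nucleus replicate 2. Cldn3 was lower in arterial nuclei (-1.39, adjusted p = 0.0282), from 6 and 5 counts and at levels below those of lymphocyte nuclei. With DESeq2, Cldn3 was not called (adjusted p = 0.911). Its difference was -2.05 without nucleus replicate 1 and -0.57 without nucleus replicate 2. Both calls stood beside 9.77% of all genes.

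Lymphatic endothelium, compared in cells and nucleus replicate 2, was lower than general capillary in Tjp1 (-1.21, SE 0.28, adjusted p = 0.0151), the single call among 7 members beside 6.90% of all genes. Tjp1 stood at 201 and 386 CPM there, ratios of 0.442 and 0.522. The cell polarity gene Pard6g was called in all 3 of these contrasts: it was higher in lymphatic (2.35) and aerocyte (0.90) and lower in arterial (-3.28) than in general capillary. Jam2, an endothelial adhesion molecule, was higher in arterial (1.25) and lower in aerocyte (-1.87).

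Mesothelium against alveolar fibroblasts gave no call among 7 members, beside 17.6% of all genes. With edgeR, 2 members were under an unadjusted p of 0.05: Cldn10 (1.37, SE 0.44, unadjusted p = 0.00963, adjusted p = 0.0535) and Tjp1 (0.47, SE 0.18, unadjusted p = 0.0245, adjusted p = 0.110). DESeq2 called 0 members as well, and without nucleus replicate 1 edgeR called 1. The other junction genes did separate these classes, with 16 of 38 higher in mesothelium and 5 lower, led by Cldn15 (4.97, SE 0.30, adjusted p = 1.11e-06). Cldn15 stood at 149, 45.5 and 89.9 CPM in mesothelial barcodes. One alveolar fibroblast cluster of nuclei had a mast cell gene, Cpa3, among its 10 leading genes, and for that reason the class was not compared between preparations.

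Across lineages, epithelium exceeded endothelium in Cldn18 (1.76, SE 0.34, adjusted p = 0.0164) and Cldn10 (0.97, SE 0.23, adjusted p = 0.0300), and fell below it in Cldn5 (-1.81, SE 0.31, adjusted p = 0.0114) and Tjp1 (-0.96, SE 0.21, adjusted p = 0.0255). Among epithelial nuclei Cldn10 was highest in club, a class not found in cells, while AT1 nuclei held 6.29 and 7.13 CPM and AT2 nuclei 7.83 and 11.3, against 6.42 and 17.2 CPM in endothelial and 9.48 and 18.9 CPM in immune nuclei. These 4 of 7 members compare with 23.3% of all genes, and 1 of the 4 was left when nucleus replicate 1 was dropped and 0 when nucleus replicate 2 was dropped. Cldn3 (1.31, SE 1.15) and Cldn7 (1.36, SE 0.82) missed the threshold. Against immune barcodes, epithelium was higher in Ocln (2.23, SE 0.20), Tjp1 (2.14, SE 0.26) and Cldn10 (1.01, SE 0.24), 3 of 7 beside 22.7% of all genes, and the count was 0 without nucleus replicate 1 and 2 without nucleus replicate 2. Endothelium was higher than immune barcodes in Tjp1 (3.07, SE 0.21), Ocln (1.83, SE 0.21) and Cldn5 (1.82, SE 0.50, adjusted p = 0.0486), 3 of 7 beside 25.5% of all genes. Without nucleus replicate 2 the last of these had an adjusted p of 0.0910. Marveld3, Cgn, Igsf5 and Patj led the 17 of 42 other junction genes that were higher in epithelium than in endothelium, and Pard6g, Jam2, Mpdz and Amotl1 led the 9 that were lower.

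Whole libraries were then compared between cells and nuclei, the question in the series title. Here 1 cell library stands against 2 nucleus libraries, the lone one is assumed to vary like the others, and class make-up and level per class cannot be told apart. Cldn5 was higher in cells by 3.01 on the log2 scale (SE 0.35, adjusted p = 0.00446), at 429 CPM against 49.3 and 71.7. Cldn10 (-2.54, SE 0.66, adjusted p = 0.0372), Ocln (-1.87, SE 0.36, adjusted p = 0.0157) and Cldn3 (-1.48, SE 0.42, adjusted p = 0.0491) were lower in cells. These 4 of 8 members compare with 25.0% of all genes. Epithelial barcodes were 6.49%, 28.1% and 43.8% of the libraries. Cldn10 differed by -1.77 without nucleus replicate 2, and Cldn3 reached an adjusted p of 0.0504 when mitochondrial and ribosomal protein genes were left out of the library totals. Of 45 other junction genes, 3 were higher and 12 lower in cells.

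The preparations were also compared class by class. In 15 classes, 96 pairs of a member and a class were tested and 47 passed, 18 higher and 29 lower in cells. The share of all genes called ran from 17.2% in venous to 37.9% in alveolar macrophages, with 21.8% in AT1, 36.9% in AT2, 23.4% in ciliated, 20.4% in general capillary and 27.8% in aerocyte capillary. It was 17.8% in pericyte, 18.4% in adventitial fibroblast, 21.5% in mesothelial, 21.6% in smooth muscle and myofibroblast, 19.7% in B, 23.2% in T/NK/ILC, and 25.7% in both dendritic and interstitial macrophage. Split by direction, 11.7% to 23.9% of all genes were higher in cells and 3.75% to 16% lower. Of the 47, 6 had 3 or fewer counts in cells, and their fitted folds are not given. DESeq2 called 19 pairs.

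Cldn5 was higher in cells in 14 of the 15 classes, by 1.31 in alveolar macrophages to 3.64 in aerocyte capillary (SE 0.46, adjusted p = 2.95e-13). General capillary (3.32, SE 0.49, adjusted p = 0.000797), venous (3.31, SE 0.42) and pericyte (3.29, SE 0.44) were close to it. B barcodes, at 0.84 (adjusted p = 0.173), were the exception. Without nucleus replicate 1 the aerocyte difference was 3.06 and without nucleus replicate 2 it was 4.39, and in general capillary these values were 2.82 and 3.97. The rise reached epithelial classes too (AT2 2.91, AT1 2.77, ciliated 2.40), where summed endothelial markers were also higher in cells, at 2766 CPM against 425 and 540 in AT2. In other classes with a Cldn5 call that sum was not above both nucleus libraries. It was 1566 CPM against 1493 and 1994 in T/NK/ILC, and 737 against 612 and 926 in alveolar macrophages. In general capillary it was 9968 against 14590 and 11207. The part of free RNA in the Cldn5 differences was not tested.

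Cldn3 rose in cells in both classes that carry it, AT2 (1.87, SE 0.33, adjusted p = 0.000512) and ciliated (2.02, SE 0.37, adjusted p = 0.00157). In nuclei neither class stood above the lymphocyte background. That they carry Cldn3 rests on the cell library, which is also the high side of this comparison. Cldn3 was lower in cells in 9 of the other 12 classes tested, where nuclei were not above that background either. General capillary (-4.07, SE 0.71) and T/NK/ILC (-3.93, SE 0.69) had the largest of these differences among classes with more than 3 counts in cells. Cldn7 went the same way, higher in AT2 cells (1.03, SE 0.35, adjusted p = 0.0311) and lower in cells in 6 other classes of 13. DESeq2 gave AT2 an adjusted p of 0.244 for Cldn7, and with cells above 5% mitochondrial UMIs left out edgeR gave 0.0804. Cldn18 was higher in AT1 cells (1.50, SE 0.38, adjusted p = 0.0163) and lower in cells of 4 immune classes out of 15 classes in all, from -1.81 in B to -1.27 in alveolar macrophages. In AT1 the adjusted p was 0.0661 when mitochondrial and ribosomal protein genes were left out.

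Ocln was lower in cells in 6 of 13 classes, among them AT2 (-1.37, SE 0.38, adjusted p = 0.0110), general capillary (-1.16, SE 0.38, adjusted p = 0.0475) and aerocyte capillary (-1.02, SE 0.41, adjusted p = 0.0464). DESeq2 gave these 3 classes adjusted p-values of 0.0584, 0.137 and 0.290. In AT1 Ocln differed by -0.89 (adjusted p = 0.113). Tjp1 was called in 1 of 15 classes, lower in B cells (-1.43, SE 0.47, adjusted p = 0.0173, and 0.259 with DESeq2), and stood at -0.95 in AT1 and -0.69 in general capillary without passing. Cldn10 was lower in cells in 3 of 11 classes, AT2 (from 2 counts in cells), general capillary (-2.59) and T/NK/ILC (-2.41).

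**Figure D5:**
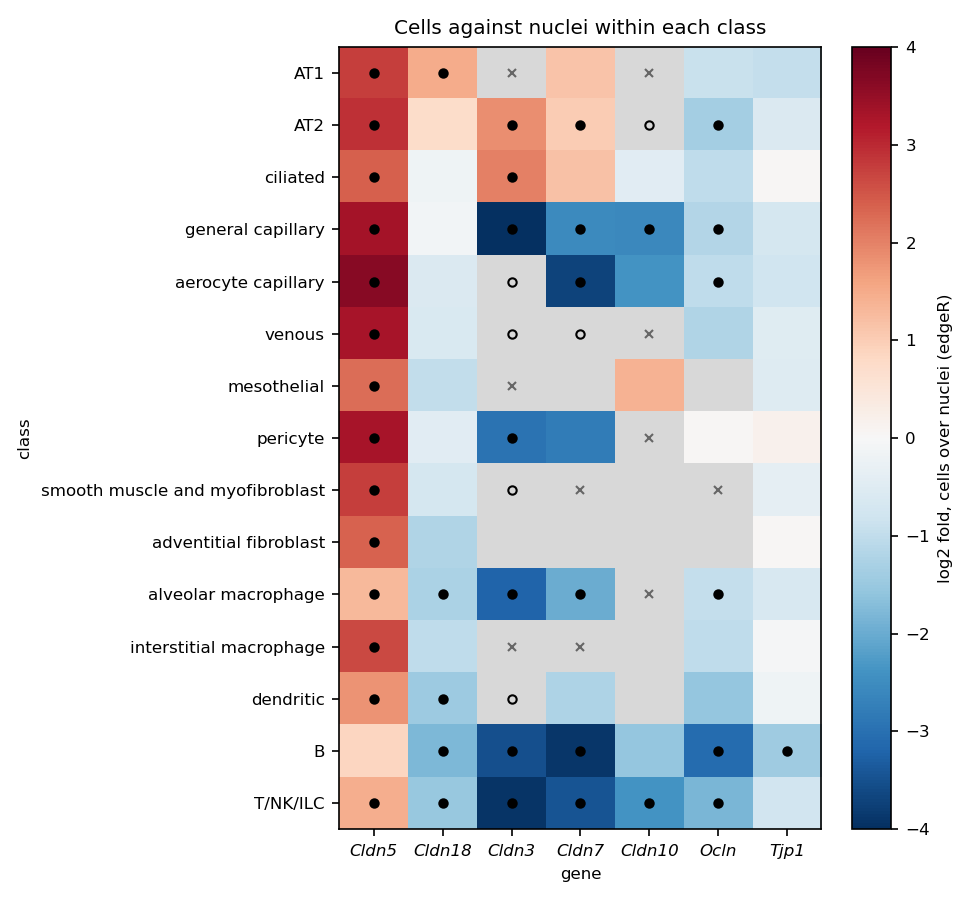
Difference between cells and nuclei within each of 15 classes as edgeR's log2 fold, red where cells are higher and blue where nuclei are higher. Filled dots mark calls at an adjusted p under 0.05. Grey squares have no fold: those with a symbol had 3 or fewer counts in a preparation (open circle called, cross not called), and plain grey was not tested. The Cldn5 column is red in all 15 classes, while Cldn3 is red in AT2 and ciliated, Cldn7 also in AT1, and both are blue in the other classes that have a fold.

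Gene length and exon number varied with these differences across all genes. Single-exon protein-coding genes had a median log2 fold between 1.71 and 3.18 over the classes (55 to 201 genes a class). Genes under 10 kb, of any exon number, had one between 1.15 and 2.30. Genes with at least 2 exons had one between -0.08 and 0.03, and genes of 50 kb or more one between -0.58 and -0.37. Exon number and span were not told apart. In AT2, the single-exon median was 1.71, beside 2.91 for Cldn5 and 1.87 for Cldn3, and the median of long genes was -0.56, beside -1.37 for Ocln and -0.57 for Tjp1. The AT2 median of genes under 10 kb was 1.18, beside 1.03 for Cldn7. In ciliated the single-exon median was 2.44 beside 2.02 for Cldn3. Cldn3 went the other way in 9 classes and Cldn7 in 6, where they were lower in cells. In general capillary the single-exon median was 1.75 beside -4.07 for Cldn3, and in T/NK/ILC 1.97 beside -3.93. Whether the counting included intronic reads is not given in the sources used here, and the part of gene structure was not tested.

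Levels over all 57 sums of a class in a library showed which genes ran alongside each member, as a description only, since the sums share libraries, preparation and free RNA. Cldn3 and Cldn7 had a Pearson r of 0.85 on log2(CPM + 1) and Ocln and Tjp1 one of 0.70, while Cldn18 and Cldn10 had 0.07. Cldn3 was most like Wfdc2 (0.93), Dynlrb2 (0.89) and Cbr2 (0.89). Cldn7 was most like the keratin genes Krt8 (0.87) and Krt18 (0.85) and, between them, Wfdc2 (0.86). Cldn18 ran with the AT1 genes Ager (0.88), Aqp5 (0.86) and Rtkn2 (0.83), which are markers that named the class. Cbr2 is one of the club markers, and Krt8 and Krt18 are on the list shared by epithelial cells. Cldn5 was most like Rtl8a (0.91), S100a16 (0.90) and Gm20532 (0.89), Cldn10 like Bmpr1b (0.87), Mgat3 (0.85) and Grip1 (0.83), Ocln like Casz1 (0.78), Nipal2 (0.77) and Bend7 (0.76), and Tjp1 like Nckap1, Nbea and Wwc2 (all 0.90).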

How the data were processed

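The authors deposited 2 tables of raw counts, UMIs per gene and barcode, 1 for cells and 1 for both nucleus libraries. STAR 2.5.3a and mm10 are named in the submitters' processing notes. The counting program, the gene annotation, and how introns and strand were treated were not given in the sources used here. The 3 samples were grouped by their labels as cells (1 library) or nuclei (2 libraries). No column of the tables was left out (0 unused).

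Barcodes with at least 400 genes and at most 20% mitochondrial UMIs were kept (11934 of 11934 cells, and 6841 of 6849 and 9806 of 9806 nuclei), with 35962788, 28059596 and 27148272 counts. A doublet caller marked 82 barcodes (1.20%) of nucleus replicate 1, which were removed. It marked 7 (0.0587%) and 9 (0.0918%) in the other libraries, where it did not work and nothing was removed. Each table was clustered alone (scanpy 1.11.5, 2000 variable genes, 30 principal components, 20 neighbours, Leiden resolution 1), and clusters were named by at least 3 markers. Classes needed 50 barcodes in a library. Counts were summed per class and library and tested with edgeR 4.0.16 (quasi-likelihood, TMM, filterByExpr, R 4.3.3), with the library as a block between classes. Benjamini-Hochberg adjustment ran over all genes tested and the threshold was 0.05. SEs are edgeR's fold divided by the square root of its F.

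DESeq2 1.42.0, no filter on low counts, other scalings, clusters and mitochondrial limits, and leaving out libraries were alternatives. Where nuclei replicates were left out against the single cell library, values have no test. Binomial and Poisson 95% intervals cover counting error only. Tested on simulated data for cells against nuclei in whole libraries (19390 genes), edgeR recovered 92% of 4-fold changes and 16% of 2-fold changes, with 2 false calls. For AT1 against AT2 (13828 genes) it recovered 98% and 36%, with 4 false calls. The simulation gave every gene the same dispersion and changed 50 genes at each fold, drawn only from genes above a minimum mean level. These rates therefore do not describe members at low levels or genes that vary more than that.

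All 8 members are named. Of 58 other tight junction genes listed, 47 were in both tables, and up to 4 called genes per direction, by size, are named from them, along with the 3 genes most like each member. The members and lists were chosen with earlier results of these data known. Positions are from GENCODE vM21. Promoter sequences are from RefSeq.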

Additional observations from a re-analysis of the deposited data

Results flagged for a closer look

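The results here are differences of differences: how much more a class exceeded another class in cells than in nuclei, on the log2 scale, from edgeR with the library as a block. All of these fits were chosen after the data were seen, and each was flagged because the test of the difference passed. The lone cell library adds nothing to the spread in these tests. Cldn3 and Cldn7 in AT2 against general capillary differed by 5.76 and 3.47, and in ciliated against general capillary by 6.17 and 3.90 (SE 0.65, adjusted p = 5.99e-07). DESeq2 called these 4 as well.

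Against T/NK/ILC, the AT1 excess was larger in cells by 3.0 for Cldn18 (SE 0.52, adjusted p = 0.00464) and by 4.64 for Cldn7 (SE 0.72, adjusted p = 0.00266), where 3.77% of all genes were called. DESeq2 called Cldn18 and gave no adjusted p for Cldn7. The aerocyte capillary excess of Cldn5 over T/NK/ILC was larger in cells by 2.37 (SE 0.51, adjusted p = 0.0380), where 1.32% of all genes were called, and DESeq2 gave an adjusted p of 0.231. AT1 against AT2 differed by -4.29 for Cldn3 (SE 0.69, adjusted p = 8.59e-07, with 3.44% of all genes called). AT1 cells held only 2 Cldn3 counts, so the size of that value is not reliable, and DESeq2 gave an adjusted p of 0.0972.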

How the results depend on the processing

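The limits are 1 cell library against 2 nucleus libraries, no named animals, gene caps on the deposited barcodes and few cells in some classes. In nuclei, the lymphocyte background was also at the level of Cldn3 and Cldn7 in epithelial classes. Over single results, 452 values kept direction and, where a test was possible, side of the threshold. A further 86 kept direction but lost the threshold, 16 moved, and none reversed. The 452 include values from fits with a nucleus replicate left out that had no test, and so no threshold to keep.

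Without the replicate block, members called fell from 3 to 0 in AT1 against AT2, 4 to 1 in ciliated and 3 to 2 in club against AT2, 1 to 0 in aerocyte and 1 to 0 in lymphatic against general capillary, 2 to 0 in arterial against general capillary, 4 to 0 in epithelium against endothelium, 3 to 0 in epithelium against immune and 3 to 1 in endothelium against immune. The block is the library both classes come from. With the replicate block added to the planned interaction of preparation with AT1 against AT2, the count went from 0 to 1 (0 with DESeq2), and for epithelium against endothelium it stayed at 0 (2 with DESeq2, with or without the block). edgeR without the block called 0 genes in either, with 835 and 1144 at an unadjusted p under 0.05, and DESeq2 called 35 and 219. No paired analysis of cells and nuclei was possible because the labels do not match the cell library to either nucleus library.

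With DESeq2, pairs of a member and a class called between preparations went from 47 to 19, and arterial against general capillary from 2 to 1. The added interactions went from 2 to 1 (AT1 against T/NK/ILC) and 1 to 0 (aerocyte against T/NK/ILC). With no filter on low counts, calls were 2 for aerocyte and 3 for lymphatic against general capillary, 1 for mesothelium against fibroblasts and 1 for the AT1 against AT2 interaction. At Leiden resolution 2, arterial gave 1 and mesothelium 1. Leaving out each nucleus replicate gave 2 to 3 members for AT1 and 2 to 4 for ciliated against AT2, 0 to 1 for aerocyte, 0 to 1 for mesothelium, 0 to 1 for epithelium against endothelium, 0 to 2 for epithelium and 2 to 3 for endothelium against immune. The cause of these changes was not tested. Combinations above lymphocyte background numbered 74 at 1000 UMIs, 60 at 500, 77 at 2000 and 107 unthinned.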

Other observations

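Other junction genes had levels in classes described less above. Cldn15 was highest in mesothelial barcodes, at 149, 45.5 and 89.9 CPM in cells and nucleus replicates 1 and 2. Cgn, a cytoplasmic scaffold, stood at 76.5, 95.7 and 170 CPM in the same class. Pard6g reached 358 CPM in lymphatic cells and 701 CPM in lymphatic nuclei of replicate 2. Cldn1 stood at 80.9, 59.9 and 45.7 CPM in dendritic barcodes, and it was lower in epithelium (-3.43) and endothelium (-2.87) than in immune barcodes. Cldn11 was at 16.5 CPM in alveolar macrophages of the cell library and at 0 in both nucleus libraries.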
